A study of Arabidopsis thaliana with 12 samples.

Results

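SOB3-GFP peaks were examined where they lay at the ends of transcripts. Peaks of 9 ChIP-seq lists were merged into 28285 sites on chromosomes 1 to 5, and a site was taken as an end site if its centre lay from 100 bp before to 1000 bp after the transcript end of a protein-coding gene and not from 1000 bp before to 100 bp after any protein-coding transcription start site (TSS). This gave 4496 end sites, 15.9% of all sites. Among them, 819 had their centre in the end regions of genes on both strands and are called facing ends below, and the remaining 3677 are called other ends. The remaining sites were 16129 promoter-TSS sites, 1711 exon sites, 1308 intron sites and 4641 intergenic sites. At the limits of the rule, the site at AT1G48310 lay 100 bp before the end and was kept, in 1 list, and that at AT1G14430 lay 101 bp before it and counted as exon, in 9 lists. The site at AT5G15160 lay 999 bp after the end and was kept, in 1 list, and that at AT1G66170 lay 1001 bp after it and counted as exon, in 4 lists.

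All plants were Arabidopsis thaliana of the Columbia (Col-0) ecotype that carried ProSOB3::SOB3-GFP, a fusion of SOB3 to green fluorescent protein driven by SOB3's own promoter, in plants mutant for sob3-4, so every group shared both the transgene and the mutation. Whole seedlings from short days, with 8 h of light and 16 h of darkness, were harvested 4 h after lights on (ZT4, 5 days old), 9 h after lights on and thus in the dark (ZT9, 5 days old), or 24 h after lights on, at the following dawn (ZT24, 6 days old). Chromatin was precipitated with an antibody to GFP in 3 biological replicates per time point, and 1 input, which is sheared chromatin without precipitation, was sequenced per time point. No plants without the fusion were analysed here, whole seedlings mix all cell types, and the number of bound cells cannot be told apart from the amount bound per cell.

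The end of a transcript is where RNA polymerase II leaves the gene, and the DNA just past it can also be the start of an antisense RNA, the promoter of the next gene or a place where 2 genes run towards each other. SOB3 (AHL29) is one of the plant AHL proteins (for AT-HOOK MOTIF NUCLEAR LOCALIZED), which bind the minor groove of AT-rich DNA through an AT-hook and restrain hypocotyl growth. Known partners of AHL proteins include TEOSINTE BRANCHED1/CYCLOIDEA/PCF (TCP) transcription factors, and AHLs are known to oppose the bHLH growth promoters called PHYTOCHROME INTERACTING FACTORS (PIFs).

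The following 8 windows of 200 bp show the DNA at the summits of end sites on which the results turn, all outside every annotated transcript. Sites were placed by their centre, and the summits at RGA and AT5G05600 lay more than 1000 bp after the end. They were read from the nuclear genome of TAIR10 and are given 5′ to 3′ on the plus strand. Capitals mark, on either strand, the TCP-like words (GGACCA or GGCCCA or GGTCCA), the PIF-like words (CACACG or CACATG or CACGCG or CACGTG) and the AT-rich words (AAATAAAA or AAATAATA or ATATAAAA or ATATAATA). AT5G15745, AT2G40270 and HAM3 are shown because their end sites ranked highest, BBX21 and RGA because they are growth regulators with high end sites, AT1G17340 and AT5G05600 because their rank changed between time points, and AT5G51780 because its site was listed only at ZT4.
AT5G15745 (chr5:5138266-5138465): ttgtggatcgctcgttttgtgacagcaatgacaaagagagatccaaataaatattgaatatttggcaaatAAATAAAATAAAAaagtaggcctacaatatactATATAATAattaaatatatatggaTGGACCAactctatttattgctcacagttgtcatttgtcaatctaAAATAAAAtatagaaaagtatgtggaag
AT2G40270 (chr2:16820872-16821071): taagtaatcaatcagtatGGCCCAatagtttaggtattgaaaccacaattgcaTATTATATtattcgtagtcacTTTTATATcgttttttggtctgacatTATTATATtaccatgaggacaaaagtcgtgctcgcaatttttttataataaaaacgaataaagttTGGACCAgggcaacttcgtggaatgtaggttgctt
HAM3 (chr4:56896-57095): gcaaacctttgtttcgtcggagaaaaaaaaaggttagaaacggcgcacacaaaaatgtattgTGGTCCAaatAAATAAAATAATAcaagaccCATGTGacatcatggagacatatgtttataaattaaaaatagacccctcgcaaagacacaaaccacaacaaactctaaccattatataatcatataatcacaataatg
BBX21 (chr1:28367777-28367976): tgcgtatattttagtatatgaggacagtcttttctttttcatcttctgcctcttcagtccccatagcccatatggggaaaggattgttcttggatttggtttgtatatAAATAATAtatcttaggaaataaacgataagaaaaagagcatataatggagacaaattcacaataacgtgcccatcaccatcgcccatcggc
RGA (chr2:253964-254163): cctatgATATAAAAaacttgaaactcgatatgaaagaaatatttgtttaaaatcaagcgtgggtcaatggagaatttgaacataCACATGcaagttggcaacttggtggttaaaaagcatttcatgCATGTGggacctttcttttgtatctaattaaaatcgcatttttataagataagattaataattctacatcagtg
AT1G17340 (chr1:5939143-5939342): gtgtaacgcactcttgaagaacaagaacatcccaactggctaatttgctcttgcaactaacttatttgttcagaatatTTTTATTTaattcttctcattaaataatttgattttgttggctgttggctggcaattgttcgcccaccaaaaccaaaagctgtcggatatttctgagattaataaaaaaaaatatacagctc
AT5G05600 (chr5:1675703-1675902): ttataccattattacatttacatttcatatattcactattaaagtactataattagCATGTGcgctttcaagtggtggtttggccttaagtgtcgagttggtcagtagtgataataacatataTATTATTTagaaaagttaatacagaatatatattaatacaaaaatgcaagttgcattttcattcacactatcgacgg
AT5G51780 (chr5:21037084-21037283): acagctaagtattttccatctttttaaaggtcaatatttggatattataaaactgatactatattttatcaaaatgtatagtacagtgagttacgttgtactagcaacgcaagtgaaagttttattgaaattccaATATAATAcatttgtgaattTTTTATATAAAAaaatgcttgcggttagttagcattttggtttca
The 3 windows of the highest-ranked sites held 2, 3 and 2 matches to the TCP-like words, counted on both strands. They held 4, 3 and 2 AT-rich words. Overlapping matches count separately: TGGACCA and TGGTCCA each hold a TCP-like word on either strand, so the separate places are fewer than the matches. The RGA window held 2 PIF-like words and no TCP-like word, and the BBX21 window held a single AT-rich word and neither of the other kinds. A match is a description of these letters and not a shown binding site.

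End sites were densest just past the transcript end. Counted per 1000 ends that were free of a promoter-TSS region at that position, there were 31.7 sites with their centre in the last 100 bp of the gene, 39.7 in the first 100 bp after the end, 33.1 in the next 100 bp, 23.5 from 200 to 300 bp and 11.9 from 900 to 1000 bp. The median centre lay 257 bp after the end (quartiles 73 and 573 bp). Facing ends lay closer to the end (median 62 bp) than other ends (median 330 bp), as their definition favours when the facing genes are close. A site in several end regions was placed at its nearest end only, which also draws facing ends closer. The first 100 bp after the end held 252 facing and 477 other ends, and the next 100 bp held 111 and 520. Other ends alone were thus most numerous from 100 to 200 bp. In 2430 of the 4496 sites the merged interval spanned the end itself. Per megabase of sequence open to each class, there were 222 end sites, 379 at facing and 203 at other ends, against 584 promoter-TSS sites and 153 intergenic sites.

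**Figure D1:**
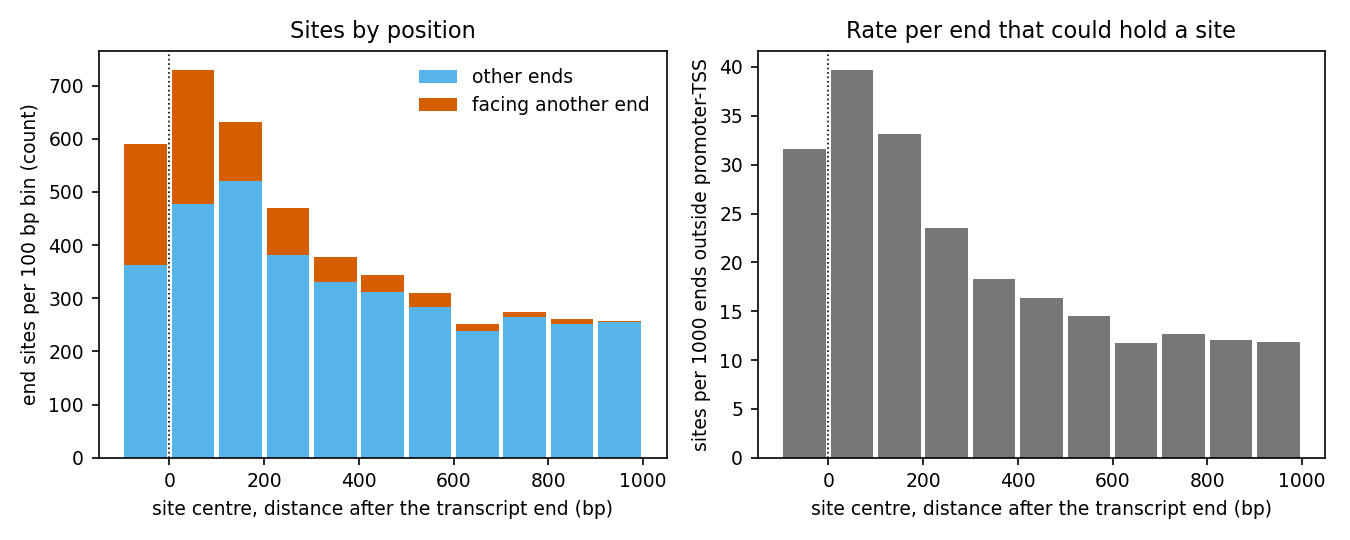
End sites by the distance of their centre after the transcript end, in bins of 100 bp, as counts for facing and other ends (left) and per 1000 ends not covered by a promoter-TSS region at that position (right). The count of all end sites is highest, at 729, in the first 100 bp after the end, and that of other ends, at 520, in the next 100 bp. For all end sites, the rate falls from 39.7 to 11.9 per 1000 ends over 1000 bp.

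Of the 27444 protein-coding genes on the 5 chromosomes, 4945 (18.0%) had an end site, and 392 had 2 or more. The share depended on the next gene downstream. Where the next gene faced the end, 27.5% of 8062 ends had an end site, and where it lay on the same strand, 15.9% of 13773 did. A site in the end regions of 2 or more genes, as 835 sites were, counted for each of those ends. Such counting can raise the share where ends face each other, and its part was not tested. For same-strand neighbours the share was 5.17% at up to 500 bp, 2.70% over 500 and up to 1000 bp, 21.4% over 1000 and up to 2000 bp and 36.9% beyond, and the promoter-TSS region of a close next gene removes sites by the rule. Of the 5604 ends that another gene overlapped, 9.56% had an end site. Where the next gene faced the end, which the rule does not remove in this way, the share was 20.4% at up to 500 bp, 36.0% over 500 and up to 1000 bp, 38.9% over 1000 and up to 2000 bp, and 31.1% beyond. Among genes with an end site, 74.1% also had a site in their own promoter-TSS region, against 58.3% of genes without one. There were 1283 genes with an end site but no promoter-TSS site. Here and below, a site counted for a promoter-TSS region only if its centre lay there, so a wide end site can still reach over a start.

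The rule of the nearest TSS, by which the study assigned peaks to genes, was compared with the gene whose end was nearest. It gave that gene in 2189 of the 4496 end sites (48.7%) and another gene in 2307. The other gene can end at the site too, as at PA200, since 835 sites lay in the end regions of 2 or more genes. The nearest protein-coding TSS was a median 1732 bp away, and over 2000 bp away in 1757 sites (39.1%). Some end sites were near a start all the same: 273 (6.07%) had their centre within 300 bp of a protein-coding TSS, which by the rule can only be downstream of it. Of all end sites, 562 (12.5%) lay in the promoter-TSS region of a noncoding gene or pseudogene, and the 273 were not left out of this count. Most often that gene was a long noncoding RNA (260 sites) or a transfer RNA (89 sites). In 117 sites the region was that of an antisense noncoding gene that overlapped the ending gene. In 276 end sites (6.14%) at least 1 single peak had its own centre in a promoter-TSS region. Whether such neighbouring starts account for the signal was not tested.

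End sites were found in fewer lists than promoter-TSS sites. In all 9 lists there were 1874 end sites (41.7%), against 48.9% of promoter-TSS sites and 49.0% of intergenic sites, and in a single list there were 700 end sites (15.6%), against 10.8% and 14.2%. Exon and intron sites were close to end sites, with 39.5% and 41.7% in all 9 lists and 16.8% and 16.0% in a single list. The widths of end and promoter-TSS sites were alike, with medians of 449.5 bp and 447 bp. All 108 end sites of 2000 bp or more were in all 9 lists. Width was that of the peaks merged over the lists, so sites found in more lists tend to be wider by construction. The share in all 9 lists was lowest at the end itself, 31.7% in the last 100 bp of the gene and 33.6% in the first 100 bp after it, and highest, 50.1%, from 200 to 300 bp after it.

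**Figure D2:**
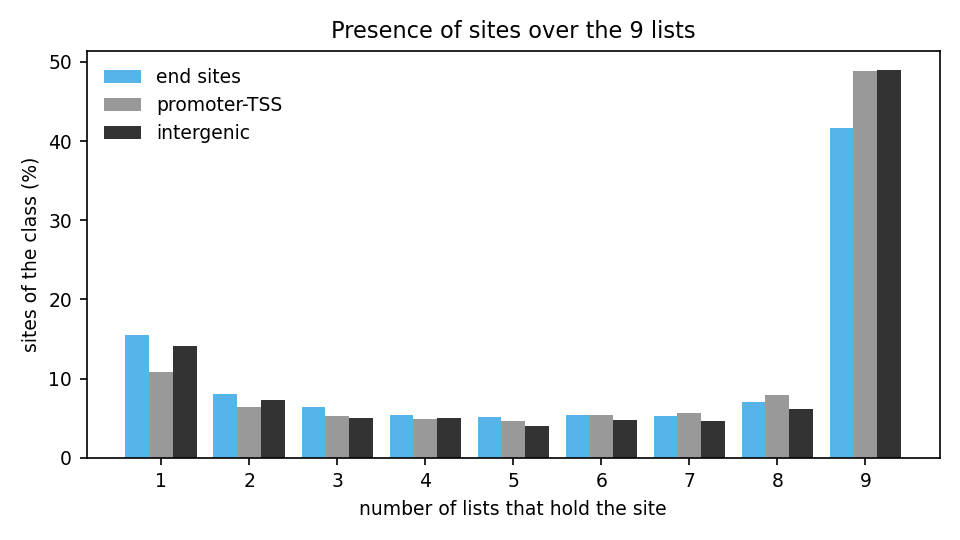
Share of the sites of each class (%) that were found in 1 to 9 of the peak lists, for end, promoter-TSS and intergenic sites. Of the classes shown, end sites have the lowest bar at 9 lists (41.7%) and the highest at 1 list (15.6%). Exon and intron sites, not shown, were close to end sites.

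To compare strength, each site was given its rank percentile, which is the rank of its fold enrichment over local background among the peaks of the same list, from 0 to 100 with 100 the highest. The median end site stood at percentile 47.4 ± 0.862 (SD over 9 lists), below promoter-TSS sites at 52.1 ± 0.423 and intergenic sites at 58.0 ± 0.898. The difference from promoter-TSS sites was −4.70 ± 0.769 and that from intergenic sites −10.5 ± 1.32 percentile points, and each was negative in 9 of 9 lists. In an exact two-sided sign-flip test over the 9 lists each had p = 0.00391, the smallest this design can give, and an adjusted p of 0.00439 over 9 tests. The lists share most sites, so the p of the sign-flip tests, here and below, measures the spread between lists only. In fold enrichment the medians were 2.70 ± 0.108, 2.81 ± 0.117 and 2.98 ± 0.153. The difference from promoter-TSS sites was smaller in stricter settings, which cut on measures that go with strength. It was −1.23 among sites in all 9 lists (p = 0.00781, exact) and −0.269 among peaks whose −log10 q reached 10 (p = 0.441, exact), while that from intergenic sites was −7.39 and −9.10 in the same settings (p = 0.00391, exact).

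Facing ends ranked below other ends, at a median percentile of 44.2 ± 1.19 against 48.2 ± 1.17 over the 9 lists. The difference was −3.97 ± 1.33 percentile points and negative in 9 of 9 lists (exact sign-flip test, p = 0.00391, adjusted p = 0.00439). It was −1.38 (p = 0.00781, exact) when facing was judged from the flanking genes at any distance, which made 2235 sites facing. Position moved with it. Within 100 bp of the end, the median of the sites' mean percentile was 26.2 for 480 facing and 27.0 for 839 other ends. From 100 to 300 bp after the end it was 32.8 for facing and 31.8 for other ends, and from 300 to 1000 bp it was 39.8 for 141 facing and 32.7 for 1936 other ends. The part of position in the difference was not tested.

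**Figure D3:**
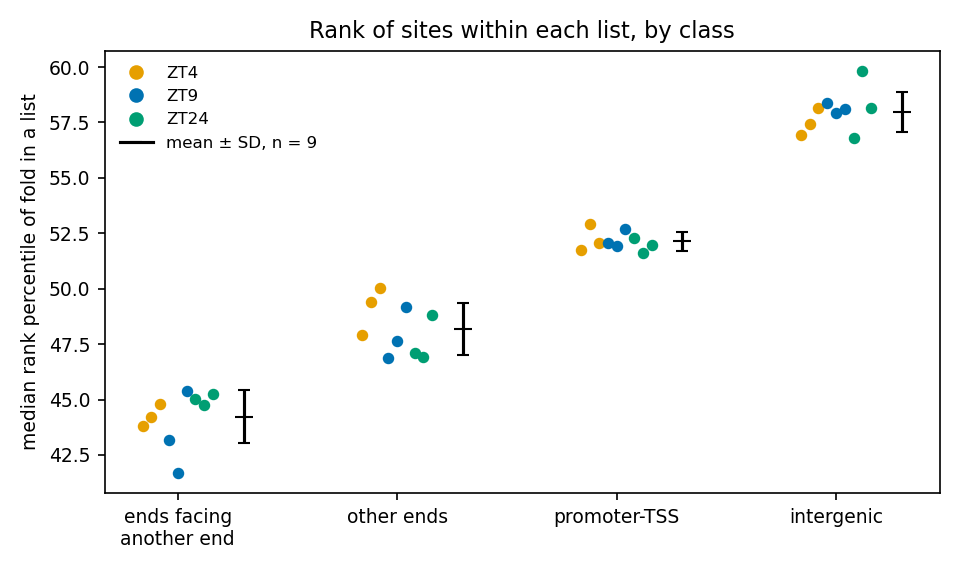
Median rank percentile of fold enrichment in each of the 9 lists, coloured by time point, for facing ends, other ends, promoter-TSS sites and intergenic sites, with the mean and SD beside the points. All 9 lists give the same order, from facing ends at 44.2 to intergenic sites at 58.0. Exon and intron sites are not shown.

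Motifs were then counted in windows of 300 bp at the summits of end sites. The 3 motifs came from the study, which had found them enriched in windows of that length at these same peaks. Higher shares at sites than in windows without a site were thus fixed by that choice and are given as a description. The TCP-like motif occurred in 38.3% ± 1.06 of end sites, the PIF-like motif in 35.9% ± 0.711 and the AT-rich motif in 50.5% ± 1.57 (SD over 9 lists). In windows of the same length centred 250 bp after the end at 14393 ends without a site, the shares were 13.3%, 19.8% and 23.6%. At 11691 promoters without a site, centred 250 bp upstream of the start, they were 11.3%, 19.5% and 37.4%, so of these 3 motifs the AT-rich one differed most between promoter and end windows without a site. The AT-rich words can contain AATAAA, the polyadenylation signal known best from animals, which occurred in 70.0% ± 1.05 of end sites and in 42.4% of end windows without a site, against 71.9% ± 1.05 of promoter-TSS sites and 58.6% of promoter windows without a site. GC content was 32.2% at end sites and 35.9% in end windows without a site. It was 33.0% at promoter-TSS sites and 31.4% in promoter windows without a site. GC content was thus lower at sites than in windows without one at ends and higher at promoters. The windows without a site were not kept out of neighbouring genes, and the part of gene sequence in these shares was not tested.

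Compared with promoter-TSS sites, end sites held the TCP-like motif more often by 1.84 ± 0.544 percentage points and the PIF-like motif more often by 2.01 ± 0.426, each in 9 of 9 lists (exact sign-flip test, p = 0.00391, adjusted p = 0.00439). They held the AT-rich motif less often, with a difference of −0.902 ± 0.762 points and 1 of 9 lists the other way (exact, p = 0.00781, adjusted p = 0.00781). These differences were small, and each was lost under at least 1 other setting. In 100 bp windows the TCP-like difference was −0.221 points (p = 0.469, exact), with end regions cut at 500 bp the PIF-like difference was 0.0986 points (p = 0.672, exact), and with sites near noncoding starts also left out the AT-rich difference was −0.255 points (p = 0.418, exact). Among sites in all 9 lists they were larger, at 4.98, 3.63 and −2.29 points. Against intergenic sites, end sites held the TCP-like motif more often by 3.01 ± 0.713 points, the PIF-like motif less often (difference −3.67 ± 0.297) and the AT-rich motif less often too (difference −5.99 ± 0.745; exact, p = 0.00391, adjusted p = 0.00439 each).

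The 10 end sites with the highest mean percentile included ends of several transcription factor and signalling genes. They stood between percentile 99.2 and 100 on average, and their values are given as a description. The highest, at chr5:5137319-5140108, had its centre 955 bp after the end of AT5G15745, a gene for an uncharacterized protein. Its fold enrichment was 12.9, 10.8 and 12.7 in the ZT4 lists, 11.5, 12.1 and 10.4 in the ZT9 lists and 11.6, 13.0 and 13.5 in the ZT24 lists. It was about as high in all 9 lists, and its centre was also 1006 bp from the start of AT5G15740, just outside that gene's promoter-TSS region. The site 667 bp after the end of AT2G40270, a protein kinase gene, at chr2:16820228-16822307, had fold enrichments of 13.2, 9.66 and 13.7 in the ZT4 lists, 11.99, 10.85 and 9.95 in the ZT9 lists and 12.9, 13.9 and 13.0 in the ZT24 lists. The ZT4 values overlapped both other groups, all 3 ZT9 values lay below all 3 at ZT24, and the fold rank did not pass the test (limma, adjusted p = 0.349). Its nearest start was 2537 bp away.

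HAM3 encodes a GRAS transcription factor that keeps shoot meristem cells undifferentiated. Its end site, at chr4:55472-57639 and 585 bp after the end, had fold enrichments of 10.8, 8.54 and 11.3 in the ZT4 lists, 10.9, 10.8 and 9.73 in the ZT9 lists and 10.1, 10.0 and 9.62 in the ZT24 lists. The end of GATA9, a GATA factor gene, had a site 561 bp past it with 10.4, 8.76 and 11.1 in the ZT4 lists, 8.10, 7.58 and 6.86 in the ZT9 lists and 11.6, 11.2 and 10.2 in the ZT24 lists. DREB1A (CBF3), an activator of cold-induced genes, had a site centred 4 bp before its end, with fold enrichments between 6.77 and 10.3, and PYL4, an abscisic acid receptor gene, had a site 711 bp after its end, with 7.12 to 10.1. The others lay at the ends of AT1G79120 (a ubiquitin carboxyl-terminal hydrolase family gene whose site was the widest, at 6996 bp), AT4G30350 (annotated with a double Clp-N motif), AT1G35560 (a TCP family factor) and AT3G44960 (shugoshin, which protects chromosome cohesion at centromeres). Of the 10 genes, AT5G15745 and AT2G40270 had no site centred in their own promoter-TSS region and the other 8 had one. The merged interval at AT5G15745 still covered that whole gene (chr5:5137456-5137758) with its start, and the start of AT5G15740. It is therefore not a site at an end apart from any start.

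Growth regulators followed in the study and the light, clock, brassinosteroid and auxin genes were then looked up. Of the 26 genes named in the study, 9 had an end site (34.6%, against 18.0% of all genes), and 25 had a promoter-TSS site, as did 61.1% of all genes. The study had picked these genes as known growth regulators with changed RNA levels in seedlings of other SOB3 genotypes. Of 10 photoreceptor genes 5 had an end site, of 16 brassinosteroid genes 6, of 8 PIF genes 2, of 29 AHL genes 7 and of 32 Aux/IAA genes 6. Of 21 clock genes only ELF4 had one, and 20 had a promoter-TSS site. A site in any list counted here. Of the 5 photoreceptor genes only CRY2 had an end site in all 9 lists, and PHYA had one in 3 lists at a mean percentile of 10.2. PIF4 had one in 9 lists and PIF1 in at most 3. The AHL genes ran from AHL17, in 9 lists, to AHL15 and AHL19, in 1 list each. These gene lists are short and were not tested.

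The strongest of these was at BBX21, a B-box factor that promotes photomorphogenesis. The site lay between BBX21 and the facing gene AT1G75550, at chr1:28367124-28368732, and stood at percentile 98.3, 97.0 and 96.8 in the ZT4 lists, 97.3, 97.4 and 97.1 in the ZT9 lists and 97.6, 98.6 and 97.7 in the ZT24 lists. The 9 values covered less than 2 percentile points. RGA, a DELLA repressor of gibberellin responses, had a site 914 bp after its end, at chr2:252808-255858, with percentiles of 94.6, 90.5 and 92.8 in the ZT4 lists, 95.0, 98.7 and 96.9 in the ZT9 lists and 92.9, 90.4 and 95.0 in the ZT24 lists. CBF1, which neighbours DREB1A on chromosome 4 and also activates cold-induced genes, had a site 298 bp after its end with a mean percentile of 93.1. The site between IAA4, an Aux/IAA repressor gene of auxin signalling, and the facing AT5G43710 had 90.6, and that of the blue light receptor gene CRY2 86.1.

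PIF4, which encodes a bHLH factor that drives hypocotyl elongation, had a site 393 bp after its end, at chr2:17888567-17890393. Its percentiles were 94.5, 93.9 and 94.6 in the ZT4 lists, 78.6, 79.2 and 78.2 in the ZT9 lists and 80.2, 73.1 and 80.8 in the ZT24 lists. All 3 ZT4 replicates lay above all 6 others, and the fold rank changed (limma, adjusted p = 0.0189 over 13251 sites). The pileup, which counts ChIP fragments at the summit without any input, was 120, 103 and 96 in the ZT4 lists, 85, 84 and 82 in the ZT9 lists and 86, 77 and 71 in the ZT24 lists. Its rank did not pass the test (limma, adjusted p = 0.162).

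The brassinosteroid genes were represented by ROT3, a cytochrome P450 of brassinosteroid synthesis (mean percentile 79.8, in a site 30 bp after its end whose centre was 248 bp from the start of AT4G36370), BKI1, an inhibitor of the receptor kinase BRI1 (75.8), and BR6OX2, a synthesis enzyme (44.0). All 3 were in 9 lists and none passed either test of change. AHL17 of the AHL family had 71.1, CDF5, a Dof factor that promotes hypocotyl growth in short days, had 68.3 with no site in its own promoter-TSS region, and IAA17 had 55.7. IAA18 had a site 476 bp after its end with percentiles of 41.5, 46.8 and 56.7 in the ZT4 lists, 71.9, 72.4 and 58.2 in the ZT9 lists and 28.0, 32.1 and 28.7 in the ZT24 lists. The groups did not overlap, and its fold rank changed (limma, adjusted p = 0.0182) while its pileup rank did not pass (adjusted p = 0.992). Its background was 15.3 to 17.7 fragments at ZT9, 16.2 to 23.6 at ZT4 and 18.4 to 26.8 at ZT24. The end of SOB3 itself had a site in 7 lists, at a mean percentile of 53.2, and reads from the transgene cannot be told apart from those of the native gene.

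The share of end sites among all sites of a list did not separate the time points. A ZT4 list held 3078 ± 243 end sites, a ZT9 list 2895 ± 242 and a ZT24 list 3010 ± 308 (SD, n = 3 lists each), which made up 15.06% ± 0.0183, 14.98% ± 0.178 and 14.81% ± 0.133 of sites (exact permutation test of the F ratio over 280 partitions, p = 0.114, adjusted p = 0.457 over 4 measures). Without ZT9 replicate 2, which had the lowest share at ZT9, the exact p was 0.0357, and with only peaks whose −log10 q reached 5 it was also 0.0357. The number of end sites, the share of facing ends and the median percentile had adjusted p-values of 0.714, 0.481 and 0.481 in the same exact test.

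Site by site, 277 of the 1874 end sites in all 9 lists changed their fold rank between time points (14.8%, limma F test, adjusted p below 0.05), against 14.6% of all 13251 such sites. In pairs of time points, 64 rose and 81 fell from ZT4 to ZT9 (4.09% and 4.23% of all sites did), 46 rose and 58 fell from ZT4 to ZT24 (2.38% and 2.62% of all sites), and 83 rose and 90 fell from ZT9 to ZT24 (4.63% and 4.35% of all sites). End sites thus changed about as often as sites in general. In pileup rank, 6 of 1874 end sites changed (0.320%, against 0.226% of all sites), and 4 of the 6 had also changed in fold rank. Without 1 list, between 143 and 190 end sites were called by fold rank and 0 or 1 by pileup rank.

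The background under the fold moved with the time point. Each time point had a single input for its 3 replicates, whose part in the fold-rank calls was not tested. Over the 1874 sites, the background of 2 lists of the same time point had a Spearman correlation between 0.716 and 0.762, and that of 2 lists of different time points one between 0.169 and 0.253. For the pileup the ranges were 0.862 to 0.909 and 0.818 to 0.888. These correlations are across sites, which share their lists and their neighbourhood. When ranked by −log10 p instead of fold, 42 end sites were called.

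The 5 end sites with the smallest p for fold rank show both kinds of change. AT5G05600, an oxygenase gene, had a site 784 bp after its end, at chr5:1675058-1676050, with percentiles of 36.3, 28.7 and 39.6 in the ZT4 lists, 85.5, 84.1 and 89.3 in the ZT9 lists and 23.1, 40.0 and 12.6 in the ZT24 lists. Its pileup was 54, 44 and 53 in the ZT4 lists, 81, 83 and 86 in the ZT9 lists and 57, 53 and 42 in the ZT24 lists. Both measures were higher in all 3 ZT9 replicates than in the other 6, and the adjusted p was 0.0040 for fold rank and 0.0669 for pileup rank (limma). AT1G17340, a phosphoinositide phosphatase family gene, had a site at chr1:5938814-5939541 with percentiles of 9.75, 4.89 and 3.73 in the ZT4 lists, 53.1, 67.9 and 69.9 in the ZT9 lists and 56.7, 55.2 and 59.0 in the ZT24 lists. It was lowest at ZT4 in both fold and pileup rank, with adjusted p-values of 0.0040 and 0.150 (limma).

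AT3G24480, a leucine-rich repeat gene, had a site 801 bp after its end, at chr3:8899664-8901043, with percentiles of 97.3, 98.8 and 97.8 in the ZT4 lists, 75.9, 79.3 and 73.2 in the ZT9 lists and 98.4, 98.1 and 97.8 in the ZT24 lists. Its pileup percentile stayed between 96.5 and 98.2 in all 9 lists (limma, adjusted p = 0.999). Its background was 18.6, 19.5 and 15.2 fragments in the ZT4 lists, 32.3, 34.0 and 37.3 in the ZT9 lists and 19.1, 18.3 and 15.0 in the ZT24 lists, so the lower fold at ZT9 came with a higher background. The sites at AT1G02490, an uncharacterized gene, and PA200, a proteasome activator gene whose end faces AT3G13320, likewise fell at ZT9 in fold rank (adjusted p = 0.0044 each, limma). Their mean background rose from 15.5 to 25.5 and from 17.0 to 28.4 fragments between ZT4 and ZT9, and their pileup ranks did not pass (adjusted p = 0.522 and 0.513).

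The 6 end sites called by pileup rank rest on the ChIP reads alone. AT1G09970, a receptor-like kinase gene, had a site between its end and that of AT1G09980, at chr1:3255536-3256412, with pileups of 45, 44 and 41 in the ZT4 lists, 69, 77 and 64 in the ZT9 lists and 69, 63 and 57 in the ZT24 lists, lower in all 3 ZT4 replicates than in the other 6. Its pileup rank rose from ZT4 to ZT9 (limma, adjusted p = 0.0298), while its fold rank did not pass (F test, adjusted p = 0.0810). AT2G31560, whose end faces AT2G31570, had pileups of 83, 72 and 62 in the ZT4 lists, 43, 51 and 45 in the ZT9 lists and 87, 85 and 52 in the ZT24 lists. Its pileup percentile was 25.4, 40.2 and 25.0 at ZT9 and at least 59.3 in all other lists, and its fold rank changed too (limma, adjusted p = 0.0452 for pileup and 0.0241 for fold). AT5G19960, an RNA-binding protein gene, was also lowest at ZT9, with pileup percentiles of 12.6, 17.7 and 16.1 against at least 36.5 elsewhere, and its site lay 135 bp from the start of AT5G19970. AT5G22390 and AT1G23205 were highest at ZT4 and AT1G11240, for a ribosomal RNA-processing protein, was lowest at ZT24 in pileup rank. The adjusted p of the 6 sites lay between 0.0452 and 0.0484, and between 0.0529 and 0.135 without any 1 list.

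**Figure D4:**
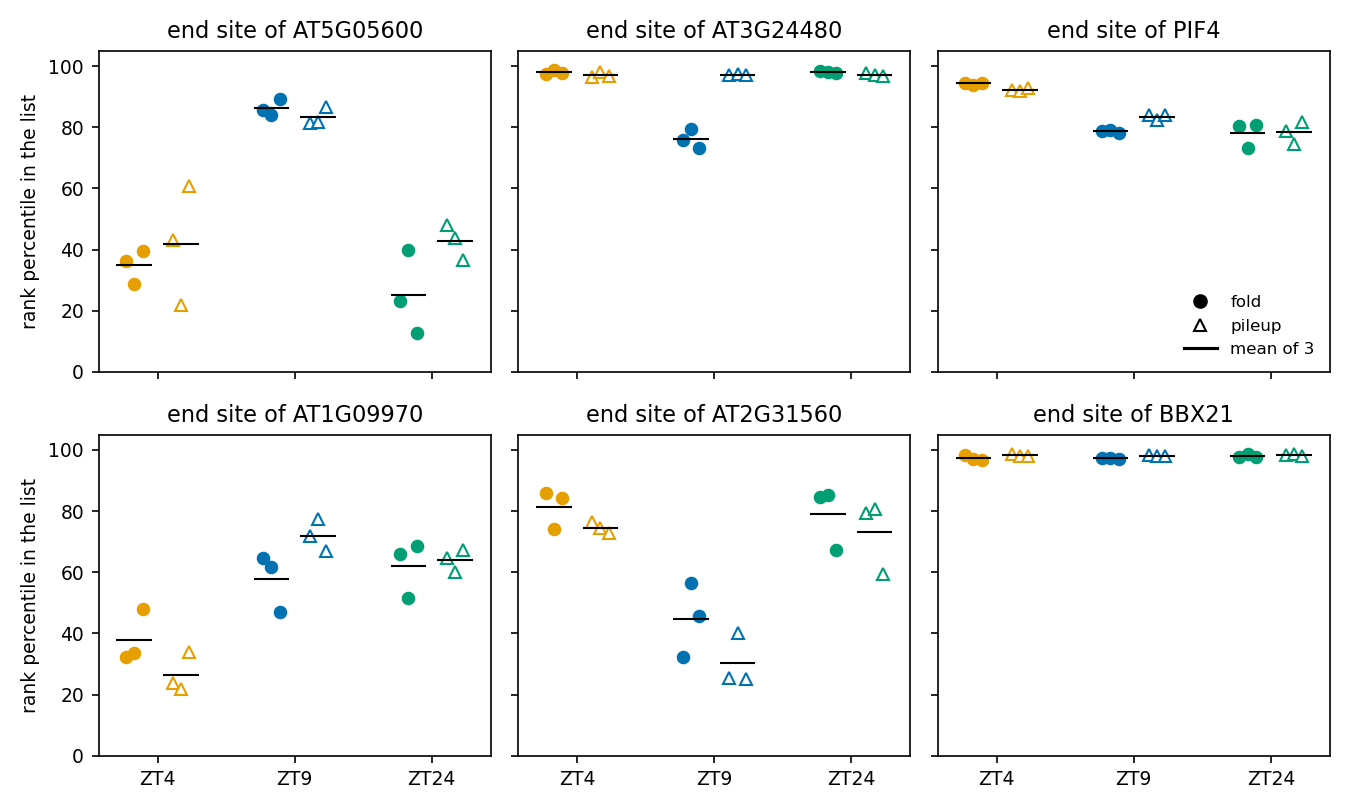
Rank percentile of 6 end sites in each of 3 replicates per time point, by fold enrichment (filled circles) and by pileup (open triangles), with lines at the means. By their means, fold and pileup are both highest at ZT9 at AT5G05600, both lowest at ZT9 at AT2G31560, both lowest at ZT4 at AT1G09970 and both highest at ZT4 at PIF4, fold alone falls at ZT9 at AT3G24480 while its pileup stays between 96.5 and 98.2, and BBX21 is flat.

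A few end sites were listed at a single time point. Restricted to 1 time point, present in each of its 3 lists and in none of the other 6, were 55 end sites (1.22%, against 0.7% of all 28285 sites), of which 23 came from ZT4, 15 from ZT9 and 17 from ZT24, while over all sites 84, 50 and 64 did. Missing from all 3 lists of 1 time point and present in the other 6 lists were 44 (0.979%, against 0.707% of all sites), 30 of them missing at ZT9, 6 at ZT4 and 8 at ZT24. Over all sites 128, 38 and 34 were missing at the same time points, so ZT9 led in both. The end sites found at a single time point had a median of their mean percentile of 25.9, against 30.9 for all end sites and 19.9 for end sites in fewer than 9 lists. Whether weaker signal lay below the threshold of the other lists was not tested.

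Among those found only at ZT4 was the site 451 bp after the end of AT5G51780, a bHLH factor gene. Its fold enrichments were 2.71, 2.46 and 2.95. A site that spanned the end of GS2, the plastid glutamine synthetase gene, had its centre 66 bp before it and 2.26, 2.65 and 3.08. The site of AT3G44450 had 2.35, 2.38 and 2.62. At ZT9 only, ELF4, a clock gene of the evening complex, had a site 82 bp after its end, at chr2:16733989-16734436, with 2.94, 2.62 and 3.26. The others at ZT9 lay at AT3G07660 (3.47, 2.49 and 3.12) and AT5G23490 (3.35, 3.18 and 2.29), the latter 202 bp from the start of AT5G23510. At ZT24 only, PUM24, a pumilio RNA-binding protein gene that faces AT3G16800, had 2.66, 2.91 and 3.48, AT5G52050, a MATE efflux gene, had 2.65, 2.58 and 3.06, and AT1G07500 had 2.28, 3.17 and 2.56 at a site 103 bp from the start of AT1G07510. All 9 fell well below the 10 highest end sites, whose fold enrichments started at 6.55.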

How the data were processed

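ChIP-seq of SOB3-GFP in Arabidopsis seedlings had 3 replicates and 1 input at each of 3 time points. Per the study's methods, reads were mapped to TAIR10 with Bowtie (uniquely mapped reads kept) and peaks were called in each replicate with MACS2 against input. The authors deposited 9 peak lists that give, per peak, a fold enrichment (a ratio of ChIP pileup to local background) and −log10 values of p and q. Which input served which list is not stated for the peak calls. Lists held 20988 to 24850 peaks, and 296 organelle peaks were left out.

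Sites were merged and placed with the RefSeq annotation of TAIR10.1, whose nuclear chromosomes are those of TAIR10, with 1 start and 1 end per gene. A site with several peaks in a list took the highest rank. The pileup and background behind each fold were solved from the deposited fold and −log10 p, whole within 0.001 for 100% of peaks. The lowest background, 12.1 to 15.8 fragments per base, is the sole measure of depth in the lists. Classes were compared per list by exact sign-flip tests, two-sided, over 9 lists that share sites and inputs, and time points by exact permutation tests. Ranks of sites in all 9 lists, as normal scores, were tested with limma 3.58.1 (R 4.3.3), adjusted over 13251 sites by Benjamini-Hochberg. On simulated ranks, 18% of sites shifted by 1 unit and 74% of those shifted by 2 were recovered. Alternatives changed the peak threshold, merging, placement, ranking, motif window and the lists used.

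Named sites were the 10 highest, the 5 with the smallest p by fold rank, those called by pileup rank, the 3 highest present only at each time point, up to 12 at listed genes, and those at the limits of the rule. BR6OX2, SOB3 and further loci beyond these were added after their values were seen. Members and lists were chosen with earlier results of these data known.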

Additional observations from a re-analysis of the deposited data

How the results depend on the processing

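Among peaks whose −log10 q reached 10 there were 2119 end sites, the difference in median percentile from promoter-TSS sites was −0.269, and 178 end sites were called by fold rank. Among those whose −log10 q reached 5 the exact p for the share of end sites by time point was 0.0357. With end regions to 500 bp the PIF-like difference was 0.0986 points and 183 sites were called by fold rank. The TCP-like difference turned to −0.221 points in 100 bp windows. The AT-rich difference was −0.571 with every annotated mRNA and −0.255 with noncoding starts also removed. Ranking by −log10 p called 42 sites. With sites in at least 2 replicates of each time point, limma called 0 end sites by pileup rank (271 of 1874 had an unadjusted p below 0.05 in the fit on all 9 lists). The causes were not tested, beyond the smaller number of sites in the stricter settings.

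Replicate numbers did not pair the lists (same-number correlations of site deviations from −0.0453 to 0.0577 by fold rank and from −0.0436 to 0.0713 by pileup rank). With the replicate block, 199 end sites were called by fold rank and 0 by pileup rank, and the p for the share was 0.222.

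Without 1 list at a time, the differences in median percentile ran from −4.88 to −4.56 against promoter-TSS sites, −10.7 to −10.2 against intergenic sites and −4.21 to −3.72 for facing ends. The motif differences ran from 1.70 to 1.92 (TCP-like), 1.92 to 2.11 (PIF-like) and −1.02 to −0.714 (AT-rich), the share's p from 0.0357 to 0.346, and the calls from 143 to 190 (fold rank) and 0 to 1 (pileup rank). The 5 sites named for fold rank were called in 45 of 45 such fits, and the 6 named for pileup rank in 0 of 54. Absence from a list says only that no peak passed the authors' threshold there, and the part of depth in it was not tested.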
